A study of Homo sapiens with 12 samples.

Results

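FOS, FOSB, FOSL1, FOSL2, JUN, JUNB and JUND encode the FOS and JUN proteins of the AP-1 transcription factor, and the array annotated 8 of its 48701 probes to these 7 genes. A probe was counted as measured where its detection p-value, which sets its brightness against that of negative control probes, fell under 0.05 on the 2 arrays of 1 or more of the groups. By that rule 6 probes for 6 genes were kept, out of 19631 kept probes and 12117 named genes tested in all. The JUNB probe passed detection on 0 of 12 arrays (detection p between 0.172 and 0.627), as did a second FOSL2 probe (between 0.0575 and 0.271). FOSB was detected on 7 arrays and the other 5 genes on all 12. FOSB was kept through its 3 brightest groups, so a difference between groups followed in part from the rule.

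H1299 cells, a p53-deficient line from a human non-small cell lung carcinoma, were grown in DMEM with 10% FCS and exposed for 6 h to 1 of 3 treatments. The treatments were GAPDH siRNA given by lipofection, GAPDH siRNA carried by PTD-DRBD, and PBS buffer as the control. In PTD-DRBD a peptide that carries cargo into cells is joined to a domain that binds double-stranded RNA. RNA was collected 12 h or 24 h later and read on 12 Illumina BeadChip arrays, 2 in each of 6 groups. Both siRNA treatments carried the same target, no group analysed here received a carrier without siRNA or an unrelated siRNA, and no label gives separate cultures for the paired arrays. Every p-value therefore reflects the spread between arrays that may be technical repeats.

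AP-1 is a dimer of basic leucine zipper proteins. JUN proteins pair with each other or with FOS proteins, FOS proteins need a partner, and the dimers bind the sequence TGACTCA or close variants of it. FOS and FOSB are immediate early genes, whose transcripts appear soon after growth factors, stress or membrane damage and are then degraded quickly. FOSL1 and FOSL2, which encode FRA-1 and FRA-2, respond more slowly and often stay raised in carcinoma cells, while JUND is made in most resting cells. A level measured in RNA of a whole culture cannot tell a change within each cell from a change in the share of cells that express a gene.

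RefSeq promoters, from 250 bases before to 50 bases after the gene start on GRCh38.p14, were at hand for 6 of the 7 genes. FOS and FOSB are printed because they were the members that rose with lipofection at 12 h, and JUND because it was the JUN gene with the clearest difference between the routes of delivery. Capitals mark matches to TGACG, the short form of the CREB site, on either strand, and to TGACNTCA. The latter takes any base at N and so includes TGACGTCA, the full CREB or ATF site, and close variants of it. Each sequence runs 5′ to 3′ along its gene.

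FOS, chr14:75278578-75278877, plus strand: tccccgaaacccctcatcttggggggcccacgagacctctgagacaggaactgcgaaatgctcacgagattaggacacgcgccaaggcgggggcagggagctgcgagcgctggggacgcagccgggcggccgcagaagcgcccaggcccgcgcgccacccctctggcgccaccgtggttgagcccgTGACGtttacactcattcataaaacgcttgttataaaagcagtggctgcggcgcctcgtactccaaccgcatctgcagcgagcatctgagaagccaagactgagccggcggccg
FOSB, chr19:45467746-45468045, plus strand: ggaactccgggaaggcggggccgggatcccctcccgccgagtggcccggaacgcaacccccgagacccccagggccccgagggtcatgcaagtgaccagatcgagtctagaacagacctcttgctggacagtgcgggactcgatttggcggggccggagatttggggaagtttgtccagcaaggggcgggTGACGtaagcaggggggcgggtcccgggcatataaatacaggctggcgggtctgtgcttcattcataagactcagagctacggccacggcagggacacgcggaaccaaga
JUND, chr19:18281573-18281872, minus strand: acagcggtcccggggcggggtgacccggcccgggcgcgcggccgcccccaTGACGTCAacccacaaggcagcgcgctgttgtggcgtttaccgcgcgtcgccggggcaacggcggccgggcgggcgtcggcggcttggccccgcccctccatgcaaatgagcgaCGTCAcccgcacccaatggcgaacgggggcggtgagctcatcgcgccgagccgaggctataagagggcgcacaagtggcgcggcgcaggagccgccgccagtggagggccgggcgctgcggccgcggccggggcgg

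In the FOS window TGACG began at base −64 from the start, and in the FOSB window at base −60. The JUND window held TGACGTCA from base −200, which contains TGACG on both strands, and a further TGACG on the opposite strand at base −86. All 6 windows held TGACG on either strand, which 24.6% of the 35116 promoters of this length hold. TGACTCA, the AP-1 site in its exact form, was found in 1 of the 6, at base 5 after the start of FOSL2. Of all promoters 4.95% hold it, and close variants that the dimers also bind are not counted there. TGACNTCA was found in JUN, as TGACATCA from base −67, and in JUND, and 7.72% of all promoters hold it. The CArG box bound by serum response factor was in none of the 6 windows and in 1.29% of all promoters, and it says nothing of sites farther from the start.

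Lipofection raised 2 of the 6 measured members at 12 h and lowered none, both of them immediate early FOS genes, where 11.9% of all genes tested passed. FOS, at chr14:75278828-75282230, had raw intensities of 318 and 287 with lipofection, 132 and 134 with PTD-DRBD and 109 and 105 in the control at 12 h. The lipofection arrays were the brightest and the control arrays the dimmest, and no 2 of the 3 groups overlapped. On background-corrected, quantile normalized log2 intensities FOS was 2.18 higher with lipofection than in the control (SE 0.29, 95% interval 1.53 to 2.82, limma adjusted p = 9.09e-04 over all genes tested), a 4.52-fold difference. The fold was 2.74 without background correction and likewise 2.74 on the authors' normalized values, and it passed in all 22 alternative settings tried. The authors' deposited table gives FOS at 3.03-fold in this comparison, as the ratio of mean intensities.

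FOSB, at chr19:45467996-45475179, encodes the FOS protein whose short splice form accumulates in stimulated neurons. Its raw intensities at 12 h were 211 and 201 with lipofection, 108 and 123 with PTD-DRBD, and 83.2 and 73.6 in the control, where 1 of the 2 arrays passed detection. The order of the 3 groups was that of FOS, again with no overlap. FOSB was 2.37 higher on the log2 scale with lipofection than in the control (SE 0.09, limma adjusted p = 1.68e-07, 5.17-fold). The control arrays had detection p-values of 0.0479 and 0.127, so this fold is against a level near the limit of detection. The fold was 2.49 without background correction, 2.47 on the authors' values and 2.99 with a larger offset of 50, and the difference passed in all 21 settings that kept the gene. The authors' deposited table gives 2.80-fold.

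Of all genes tested 4.95% rose and 6.92% fell with lipofection at 12 h. The median log2 fold change of the members was 0.13, and the medians of all genes lay between −0.0057 and 0.0075 in the 4 comparisons with control. FOSL1 (0.04), FOSL2 (−0.21), JUN (−0.37) and JUND (0.23) did not pass, with limma adjusted p-values of 0.837, 0.135, 0.105 and 0.112. JUN passed at −0.37 when only the arrays of the groups compared entered the fit (limma adjusted p = 0.0264), and JUND passed in 3 of the 22 settings.

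**Figure D1:**
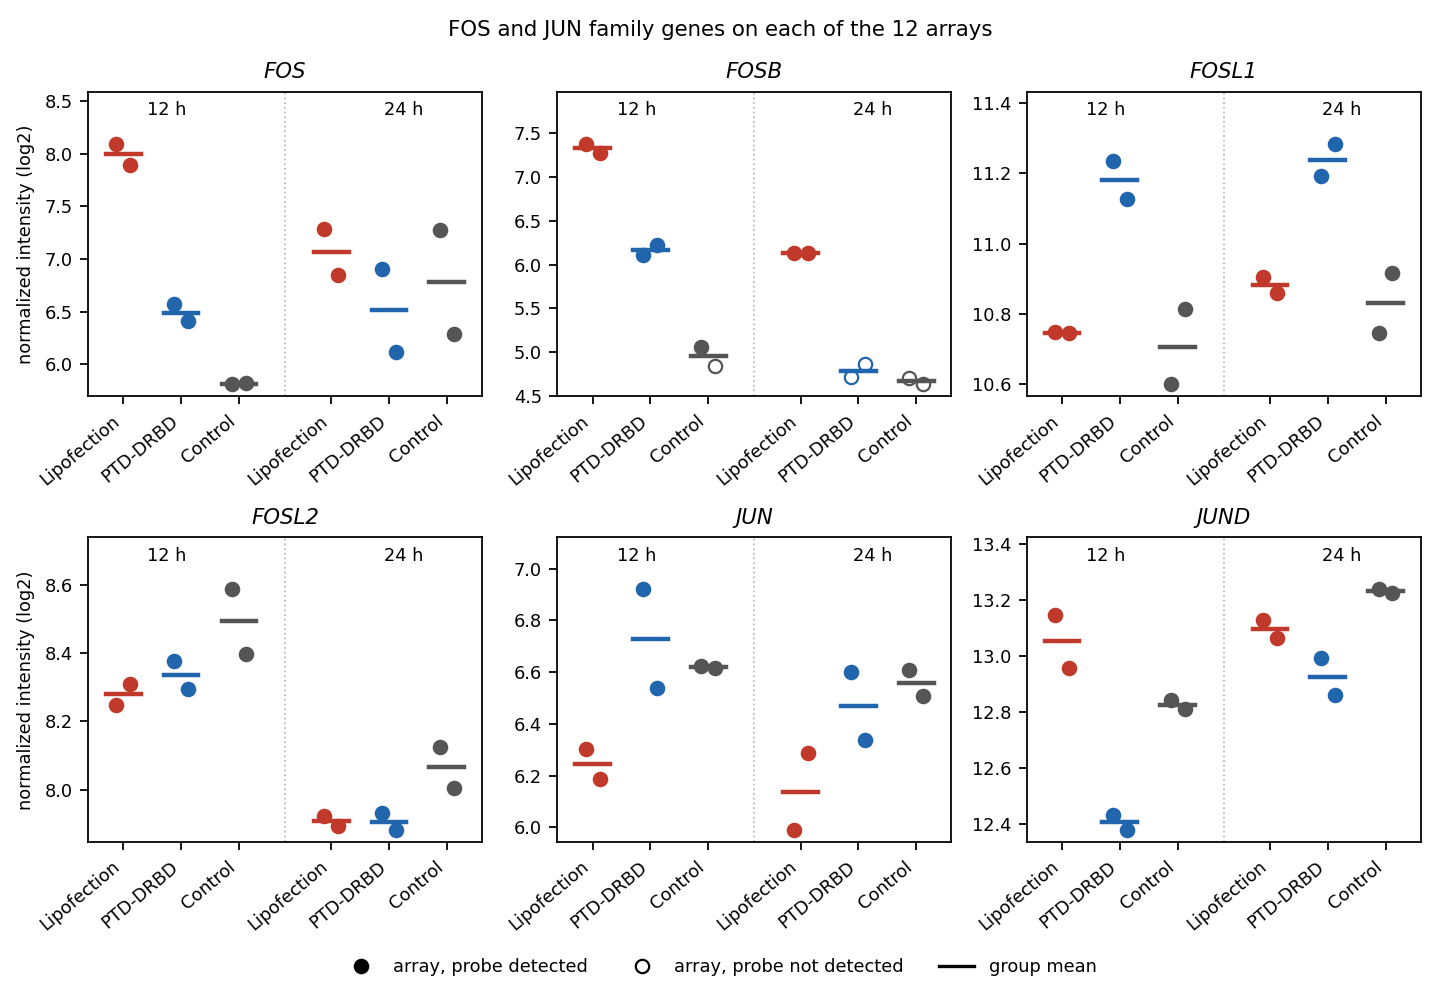
Normalized log2 intensity of the 6 measured FOS and JUN family genes on each of the 12 arrays, by treatment and time. Filled points were detected, open points were not, and bars are group means of 2 arrays. FOS and FOSB are highest with lipofection at 12 h, FOSL1 is highest with PTD-DRBD at both times, and the 2 arrays of each 24 h group lie far apart for FOS. Axes differ between panels and do not start at 0.

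PTD-DRBD at 12 h raised FOSB and FOSL1 and lowered JUND, 3 of 6 members, where 7.88% of all genes passed, 3.42% higher and 4.46% lower. FOSB was 1.21 higher on the log2 scale with PTD-DRBD than in the control (SE 0.09, limma adjusted p = 5.71e-05), a 2.32-fold difference from the same control near the limit of detection. That fold was 1.48 without background correction and 1.48 on the authors' values, and it passed in all 21 settings. FOS was 0.67 higher (95% interval 0.03 to 1.32, limma adjusted p = 0.197) and did not pass, although its arrays did not overlap those of the control. It passed in 1 of 22 settings, the fit on the arrays compared alone (limma adjusted p = 0.0120). The reported interval rests on the spread in all groups, which for FOS was larger at 24 h, as given below.

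FOSL1, at chr11:65892049-65900545, encodes FRA-1, which supports invasion in many carcinoma lines. Its raw intensities at 12 h were 1753 and 1815 with lipofection, 2346 and 2429 with PTD-DRBD and 1791 and 1946 in the control. At 24 h they were 1871 and 1749.8 with lipofection, 2301 and 2275 with PTD-DRBD and 1738 and 2079.8 in the control. Both PTD-DRBD arrays were brighter than every lipofection and control array at each time, and the lipofection arrays overlapped those of the control after normalization. FOSL1 was 0.47 higher on the log2 scale with PTD-DRBD than in the control at 12 h (SE 0.09, limma adjusted p = 0.0123, 1.39-fold). At 24 h it was 0.41 higher (limma adjusted p = 0.0194, 1.33-fold).

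FOSL1 passed with PTD-DRBD in 20 of 22 settings at 12 h and 19 of 22 at 24 h, with values between 0.32 and 0.58. The settings that ended these calls all left arrays out. Without the first PTD-DRBD array the 12 h value was 0.42 (limma adjusted p = 0.0883), and without the first control array it was 0.36 (limma adjusted p = 0.0986). At 24 h it was 0.36 without the second PTD-DRBD array (limma adjusted p = 0.142) and 0.32 without the first control array (limma adjusted p = 0.109). With lipofection the FOSL1 differences from control were 0.04 at 12 h (95% interval −0.16 to 0.24) and 0.05 at 24 h (−0.15 to 0.25). The intervals with PTD-DRBD were 0.27 to 0.68 at 12 h and 0.20 to 0.61 at 24 h, so those at 24 h overlapped. The direct comparison of the routes is given below.

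JUND, at chr19:18279694-18281622, encodes the JUN protein that restrains proliferation in mouse fibroblasts. At 12 h it had raw intensities of 8731 and 8025 with lipofection, 5354 and 5617 with PTD-DRBD and 8128 and 7394 in the control. At 24 h it had 8571 and 8649 with lipofection, 8166 and 7213 with PTD-DRBD and 9641 and 9817 in the control. The PTD-DRBD arrays were the dimmest of their time point, most clearly at 12 h. JUND fell by 0.42 on the log2 scale with PTD-DRBD against the control at 12 h (SE 0.08, limma adjusted p = 0.0129), and by 0.31 at 24 h (SE 0.08, limma adjusted p = 0.0370).

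Leaving out any 1 of the 4 arrays compared at 12 h ended the JUND call, with limma adjusted p-values between 0.0575 and 0.0817 and values between −0.45 and −0.40. At 24 h JUND did not pass without the second PTD-DRBD array (−0.24, limma adjusted p = 0.235), without the first control array (limma adjusted p = 0.122), without the second (limma adjusted p = 0.133), or in the fit on the arrays compared alone (limma adjusted p = 0.0726). At 24 h with lipofection JUND was at −0.14 (95% interval −0.32 to 0.05, limma adjusted p = 0.269). FOSL1 and JUND were the members that passed with PTD-DRBD at 24 h, 2 of 6, where 14.0% of all genes passed, 5.87% higher and 8.15% lower.

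**Figure D2:**
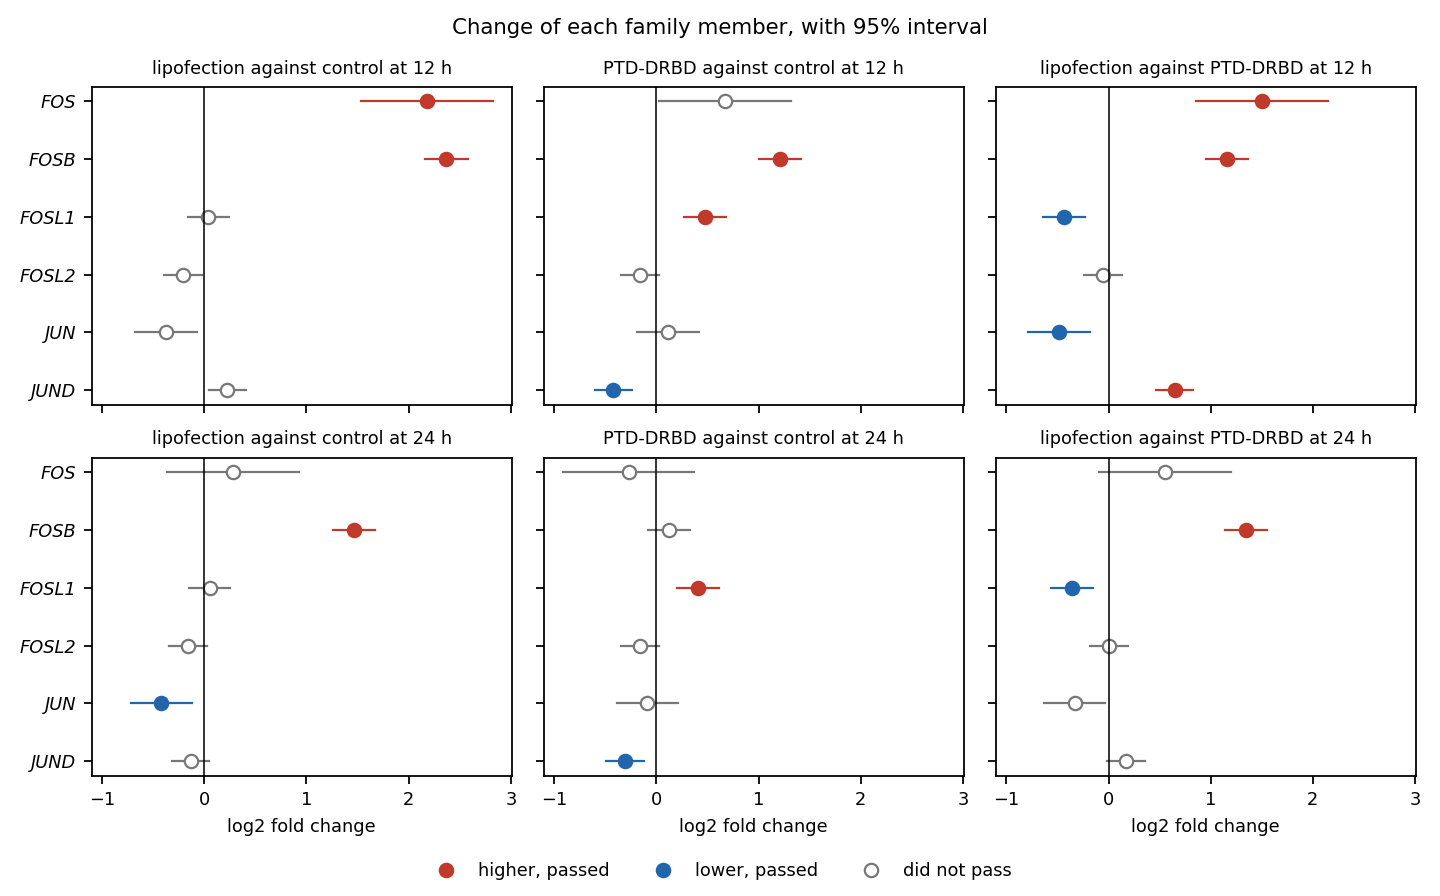
Log2 fold change (x axis) of the 6 genes in 6 comparisons, with 95% intervals from limma over all 12 arrays. Red points passed upward, blue points passed downward and open points did not pass. FOS and FOSB stand furthest right with lipofection at 12 h, and FOSB stays at 1.46 at 24 h, a fitted value against a control below detection.

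By 24 h FOSB was the member still raised with lipofection, and JUN was the member lowered, 2 of 6 where 23.6% of all genes passed, 10.6% higher and 12.9% lower. FOSB had raw intensities of 108 and 105 with lipofection, 62.0 and 64.6 with PTD-DRBD and 61.0 and 59.6 in the control. Both lipofection arrays passed detection and none of the other 4 did. Since the control was below detection, FOSB was at least 2.16-fold higher with lipofection (limma adjusted p = 5.19e-06), on the normalized scale. Set against PTD-DRBD it was at least 2.11-fold higher (limma adjusted p = 1.21e-05). Both p-values test the fitted differences. The bounds hold only on the scale of the reported processing, since the folds fell below them under other processing. The fitted folds behind these bounds, 2.76 and 2.54, were 1.61 and 1.54 without background correction, 1.65 and 1.53 on the authors' values, and 1.75 and 1.69 with an offset of 50. The authors' deposited table lists FOSB at 1.82-fold with lipofection at 24 h. No fold is given for PTD-DRBD against control at 24 h, where both groups were below detection.

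FOS at 24 h had raw intensities of 192 and 146 with lipofection, 154 and 101 with PTD-DRBD and 195 and 124 in the control. All 3 groups overlapped. FOS was 0.28 above control with lipofection (95% interval −0.37 to 0.92, limma adjusted p = 0.523) and at −0.27 with PTD-DRBD (−0.92 to 0.37, limma adjusted p = 0.555). The sign of each turned when 1 array was left out, to −0.22 with lipofection without the second control array, and to 0.22 with PTD-DRBD without the first. The 2 arrays of a 24 h group differed by 0.44 to 0.99 log2 for FOS, against 0.01 to 0.21 in the 12 h groups. Its residual SD of 0.39 was exceeded by 1 of the 12117 genes, whose median was 0.0997. Differences of FOS at 24 h were therefore measured with little precision. The model used 1 spread for both times, so FOS intervals are wide for the 12 h arrays and narrow for the 24 h arrays.

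JUN, at chr1:58780791-58784047, encodes c-Jun, the partner that carries much of the transcriptional activity of AP-1. Its raw intensities at 12 h were 123 and 118 with lipofection, 156 and 142 with PTD-DRBD and 157 and 148 in the control. At 24 h they were 101 and 112 with lipofection, 132 and 110.05 with PTD-DRBD and 137 and 137 in the control. The lipofection arrays were the dimmest at 12 h, and at 24 h they lay below both control arrays. JUN fell by 0.42 on the log2 scale with lipofection against the control at 24 h (SE 0.14, limma adjusted p = 0.0464). It passed in 13 of 22 settings. Without the first lipofection array at 24 h it was at −0.27 (limma adjusted p = 0.230), and without a detection filter the limma adjusted p was 0.0742. The call also ended without either 24 h control array (−0.37 and −0.47, limma adjusted p = 0.180 and 0.107) and without any 1 of the 4 lipofection and control arrays at 12 h (limma adjusted p between 0.0609 and 0.0617). With PTD-DRBD the JUN differences were 0.11 at 12 h (95% interval −0.19 to 0.41) and −0.09 at 24 h (−0.39 to 0.21), neither of which passed.

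FOSL2, at chr2:28392858-28417317, did not pass in any comparison of a treatment with control or between the routes. Its raw intensities at 12 h were 349.5 and 371 with lipofection, 355 and 383 with PTD-DRBD and 481 and 399.5 in the control, and at 24 h 273 and 255, 269.7 and 241, and 319 and 318 in the same groups. Each treated array was dimmer than every control array of its time, and its log2 differences from control lay between −0.21 and −0.16. Between 49.8% and 61.5% of all genes had groups that did not overlap in a comparison of 2 groups, so non-overlap alone was common. JUNB had raw intensities between 54.5 and 69.7 over the 12 arrays, below detection throughout, and no fold is given for it.

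The routes of delivery, set against each other at 12 h, differed in 5 of the 6 members, where 14.8% of all genes passed, 6.51% higher and 8.29% lower. FOS was 1.50 higher on the log2 scale with lipofection than with PTD-DRBD (SE 0.29, limma adjusted p = 0.00647), and 1.40 higher without the first lipofection array (limma adjusted p = 0.0530). FOSB was 1.16 higher (SE 0.09, limma adjusted p = 3.42e-05) and JUND 0.65 higher (SE 0.08, limma adjusted p = 6.64e-04), and both passed in every setting that kept them. FOSL1 and JUN were lower with lipofection than with PTD-DRBD, by −0.43 (limma adjusted p = 0.0105) and −0.49 (limma adjusted p = 0.0361).

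The calls of FOSL1 and JUN between the routes changed with single arrays, and that of JUN also with other settings. FOSL1 did not pass at 12 h without either lipofection array or without the first PTD-DRBD array (limma adjusted p between 0.0638 and 0.0782). JUN passed in 14 of 22 settings and was at −0.30 without the first PTD-DRBD array (limma adjusted p = 0.247), at −0.43 without the second lipofection array (limma adjusted p = 0.189) and at −0.55 without the first (limma adjusted p = 0.104). JUN also did not pass without a detection filter (limma adjusted p = 0.0583) or on the arrays compared alone (limma adjusted p = 0.0572). Its call ended as well without either 12 h control array or the first 24 h control array, which are outside this comparison. The JUN value there stayed between −0.49 and −0.48. FOSL2 differed by −0.06 between the routes at 12 h (95% interval −0.24 to 0.13).

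At 24 h the routes differed in FOSB, given above, and in FOSL1, 2 of 6 members, where 8.25% of all genes passed, 4.69% higher and 3.57% lower. FOSL1 was at −0.36 with lipofection against PTD-DRBD (SE 0.09, limma adjusted p = 0.0382) and passed in 14 of 22 settings. It did not pass without any 1 of the 4 arrays compared (limma adjusted p between 0.0884 and 0.183) or in the fit on those arrays alone (limma adjusted p = 0.105). FOS differed by 0.55 (95% interval −0.09 to 1.20), JUN by −0.33 (−0.63 to −0.03) and JUND by 0.17 (−0.01 to 0.36), with limma adjusted p-values of 0.281, 0.162 and 0.243.

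The effect of each route was also compared between the 2 times. With lipofection the difference of FOS from control moved by −1.90 on the log2 scale between 12 h and 24 h (SE 0.42, 95% interval −2.81 to −0.99, limma adjusted p = 0.0246), and the fitted difference of FOSB by −0.91 (SE 0.13, limma adjusted p = 0.00548). These were 2 of 6 members, where 7.99% of all genes passed, 3.97% upward and 4.02% downward. FOS passed in 15 of 22 settings. Leaving out 1 array ended its call in 6 cases, with limma adjusted p-values between 0.0590 and 0.0866 and values between −2.00 and −1.40, the last of them without the first control array at 24 h. As a ratio the movement of FOS was 3.73-fold, and 2.43-fold without background correction.

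With PTD-DRBD the fitted difference of FOSB from control moved by −1.09 (SE 0.13, limma adjusted p = 0.00579), 1 of 6 members, where 0.363% of all genes passed, 0.124% upward and 0.239% downward. As a ratio this was 2.13-fold, against 1.41-fold without background correction and 1.37-fold on the authors' values. FOSB was below detection in the control and with PTD-DRBD at 24 h, so both of its movements are fitted values and not measured changes. With PTD-DRBD the 24 h difference was not measured at all. With lipofection it is known only as a lower bound, and a larger 24 h difference would make the movement smaller. FOS moved by −0.95 with PTD-DRBD (SE 0.42, limma adjusted p = 0.254), and FOSL1 moved by 0.01 with lipofection (95% interval −0.28 to 0.30) and −0.07 with PTD-DRBD (−0.35 to 0.22).

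The control arrays themselves differed between the times in FOSL2 and JUND, 2 of 6 members, where 8.71% of all genes passed, 4.15% higher and 4.56% lower. FOSL2 fell by 0.43 on the log2 scale in the 24 h control against the 12 h control (SE 0.08, limma adjusted p = 0.0101). JUND was 0.41 higher in the 24 h control (SE 0.08, limma adjusted p = 0.0129). FOSL2 did not pass without the first 12 h control array (−0.33, limma adjusted p = 0.0988) or the second 24 h control array (−0.37, limma adjusted p = 0.0851), and JUND did not pass without any 1 of the 4 (limma adjusted p between 0.0658 and 0.0738). FOS was 0.97 higher in the 24 h control (95% interval 0.32 to 1.61, limma adjusted p = 0.0651) and passed in 8 of 22 settings.

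The order of the 6 group means differed from member to member. Gaps between neighbours were set against a 95% margin for each gene, from the spread between arrays. The margin was applied after sorting and was not adjusted for the number of gaps or genes. For FOS the lipofection group at 12 h (7.99 log2) stood above the lipofection group at 24 h (7.06) by more than the 95% margin of 0.64, and no gap between neighbours among that group and the next 3, between 6.49 and 6.79, was wider than it. The 12 h control was lowest, at 5.82, and stood below PTD-DRBD at 12 h by more than the margin. That difference did not pass after adjustment over all genes (limma adjusted p = 0.197). For FOSB the lipofection group at 12 h led at 7.33, PTD-DRBD at 12 h (6.17) and lipofection at 24 h (6.13) did not differ beyond the spread, and the other 3 groups were at or below detection. For FOSL1 the PTD-DRBD groups led, at 11.24 at 24 h and 11.18 at 12 h, and stood above the other 4 groups, between 10.71 and 10.88, by more than the spread. Gaps between neighbours among those 4 were within it. For JUND the 24 h control (13.23) was highest and PTD-DRBD at 12 h (12.41) lowest, 0.42 below the 12 h control, the next group up.

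Over the 12 arrays the normalized values of FOS and FOSB had a Pearson r of 0.70, and no other pair of members was above 0.48. Other pairs ran in opposite directions, down to −0.51 for FOS and JUN and −0.50 for JUN and JUND. The points share arrays and treatment groups, and these correlations are descriptions. The named genes whose values were most like FOSB were CSRNP1 (r = 0.97), ZFP36 (0.96) and GCLM (0.94). CSRNP1 differed from control by 1.01 with lipofection and 0.38 with PTD-DRBD at 12 h, and by 0.62 and −0.12 at 24 h. For FOS they were ZNF551, MSMO1 and PDPK1, each at 0.89. For FOSL1 they were CFAP298 (0.94), TAF15 (0.93) and ALKBH3 (0.92), and for FOSL2 CUEDC1 (0.97), SNAPC4 (0.96) and HBEGF (0.96). JUN was most like KIF7 (0.93), IRX3 (0.92) and KRT8 (0.88), and JUND most like RAB5B (0.96), CAPNS1 (0.96) and ARG2 (0.95).

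Among 15 listed basic leucine zipper factors that can share dimers or sites with the family, 9 were measured, and most that passed were higher than in the control. With lipofection 4 rose and 1 fell at 12 h and 4 rose at 24 h, and with PTD-DRBD 3 rose at each time. Over all genes 11.9% passed with lipofection and 7.88% with PTD-DRBD at 12 h, and 23.6% and 14.0% at 24 h. This list and those below were chosen with earlier results of these data known, so the shares are descriptions. The calls with PTD-DRBD at 12 h include BATF2, kept for testing only through the PTD-DRBD groups. The medians of the 9 were 0.22, 0.16, 0.20 and 0.26 log2 for lipofection and PTD-DRBD at 12 h and then at 24 h. ATF3, a stress-induced factor that pairs with JUN proteins, had raw intensities at 12 h of 782 and 873 with lipofection, 426 and 528 with PTD-DRBD and 351 and 336 in the control. It passed in all 4 comparisons, at 1.51 with lipofection and 0.64 with PTD-DRBD at 12 h (limma adjusted p = 3.33e-06 and 0.00203), and at 0.75 and 0.38 at 24 h (limma adjusted p = 2.74e-04 and 0.0191).

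The other partners that passed did so in fewer comparisons. MAFG, a small Maf protein, rose with lipofection by 0.46 at 12 h and 0.83 at 24 h, and with PTD-DRBD by 0.56 at 24 h. BATF3, which pairs with JUN proteins in dendritic cells, fell by 0.73 with lipofection at 12 h (limma adjusted p = 0.00183) and rose by 0.52 with PTD-DRBD at 24 h (limma adjusted p = 0.0141). BATF2 was at least 1.58-fold higher on the normalized scale with PTD-DRBD at 12 h (limma adjusted p = 0.00239), with both control arrays below detection. Raw intensities of BATF2 there were 98.5 and 93.3 with PTD-DRBD against 73.8 and 72.7 in the control. It was kept for testing only through the PTD-DRBD groups, where it is brightest, so that difference followed in part from the detection rule. JDP2, a repressor that binds JUN proteins, rose by 0.51 with PTD-DRBD at 12 h, and NFE2L2, the oxidative stress factor NRF2, rose by 0.45 with lipofection at 24 h.

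Of 33 listed genes upstream of FOS and JUN, kinases of the MAP kinase cascades and factors that bind their promoters, 27 were measured. With lipofection at 12 h 0 of the 27 passed in limma, where 11.9% of all genes passed. In that comparison 1 of the 27 had an unadjusted limma p under 0.05. With PTD-DRBD at 12 h 1 rose and 2 fell, with lipofection at 24 h 3 rose and 4 fell, and with PTD-DRBD at 24 h 1 rose and 3 fell. These were 11.1%, 25.9% and 14.8% of the 27, near the 7.88%, 23.6% and 14.0% of all genes that passed in the same comparisons. Their medians lay between −0.05 and 0.07 log2. CREB1, the factor that binds TGACG, fell in 3 of the 4 comparisons, by 0.41 with PTD-DRBD at 12 h, 0.42 with lipofection at 24 h and 0.56 with PTD-DRBD at 24 h (limma adjusted p = 0.0466, 0.0187 and 0.0110).

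ELK1, a partner of serum response factor, fell at 24 h by 0.41 with lipofection and 0.44 with PTD-DRBD (limma adjusted p = 0.00541 and 0.00821). MAP2K3, a kinase that activates p38, rose by 0.50 with PTD-DRBD at 12 h, and RPS6KA5, the kinase MSK1, fell by 0.48 there. At 24 h with lipofection MEF2D rose by 0.47 and RPS6KA3, the kinase RSK2, fell by 0.58. These are levels of RNA, and activation of the kinases by phosphorylation was not measured.

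Of 23 listed textbook AP-1 target genes 17 were measured, and they moved in both directions. With lipofection 1 rose and 6 fell at 12 h, and 2 rose and 3 fell at 24 h. With PTD-DRBD 4 rose and 2 fell at 12 h, and 3 rose and 3 fell at 24 h. Those that passed were 41.2% of the 17 with lipofection and 35.3% with PTD-DRBD at 12 h, where 11.9% and 7.88% of all genes passed, and 29.4% and 35.3% at 24 h, where 23.6% and 14.0% did. The list was chosen with earlier results of these data known, so these shares are descriptions and no test of the targets. They also count calls of genes kept for testing only through groups where they are bright, CXCL8, MMP10 and MMP1, as given below. The medians were −0.05 and 0.08 at 12 h and 0.04 and 0.03 at 24 h, lipofection first. HMOX1, heme oxygenase, had raw intensities at 12 h of 3891 and 4254 with lipofection, 1010.2 and 1083 with PTD-DRBD and 787 and 719 in the control. It was 2.64 and 2.97 higher with lipofection at 12 h and 24 h, and 0.61 and 0.34 higher with PTD-DRBD, and passed in all 4 comparisons.

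CCL2, a chemokine that attracts monocytes, moved the other way at 12 h, with raw intensities of 88.5 and 96.3 with lipofection, 141 and 153 with PTD-DRBD and 237 and 218 in the control. It fell by 1.80 with lipofection and 0.67 with PTD-DRBD (limma adjusted p = 5.68e-05 and 0.0273). At 24 h CCL2 was at 86.7 and 102 with lipofection, 93.5 and 80.9 with PTD-DRBD and 84.7 and 102 in the control. It passed against control with neither route there. Between the 2 control times CCL2 and CXCL8 both passed, and both were dimmer at 24 h. CXCL8, the neutrophil chemokine interleukin 8, was at least 1.67-fold lower with lipofection at 12 h (limma adjusted p = 4.41e-05), where it was below detection. Raw intensities of CXCL8 there were 61.8 and 65.5 with lipofection against 117 and 98.5 in the control. At 24 h CXCL8 was below detection in every group. It was kept for testing only through the control and PTD-DRBD groups at 12 h. That difference therefore followed in part from the detection rule. MMP9, a gelatinase, fell at 12 h by 0.71 with lipofection and 0.54 with PTD-DRBD.

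MMP10, a stromelysin, was at least 2.16-fold higher on the normalized scale with PTD-DRBD than in the control at 12 h (limma adjusted p = 5.44e-05). At 24 h it was at least 1.19-fold higher. Raw intensities of MMP10 at 12 h were 105 and 126 with PTD-DRBD against 75.2 and 75.0 in the control. It was below detection in the control and with lipofection at both times, so it was kept for testing only through the PTD-DRBD groups and had to differ there. MMP1, a collagenase, was lower at 24 h, by −0.42 with lipofection (limma adjusted p = 0.0418) and at least 1.43-fold with PTD-DRBD (limma adjusted p = 0.0114). Raw intensities of MMP1 there were 65.4 and 67.4 with PTD-DRBD against 84.6 and 90.6 in the control. It was kept for testing only through the control and lipofection groups at 24 h. Its difference with PTD-DRBD at 24 h therefore followed in part from the detection rule. The bounds for BATF2, CXCL8, MMP10 and MMP1 are on the scale of the reported processing. Like those of FOSB they may not hold under other processing, which was not tried for these genes. The lipofection and PTD-DRBD comparisons at 1 time share their control arrays.

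**Figure D3:**
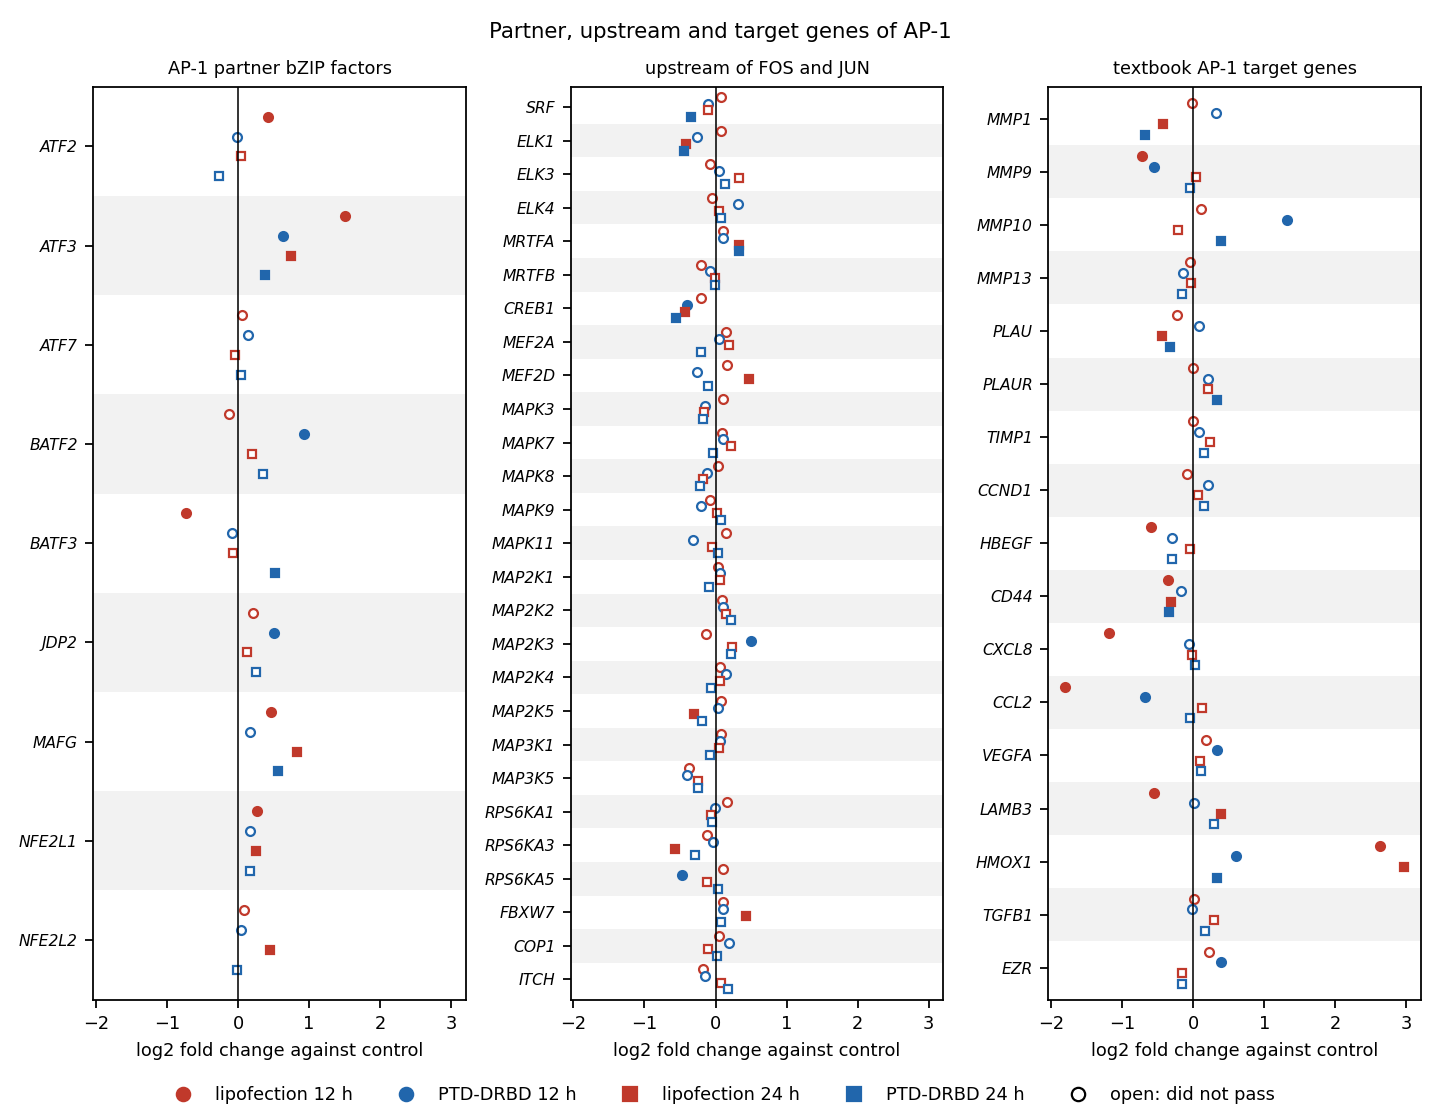
Log2 fold change against control (x axis) of the measured members of 3 lists, partner factors, upstream genes and target genes, for lipofection and PTD-DRBD at 12 h and 24 h. Filled symbols passed and open symbols did not. ATF3 lies to the right in all 4 comparisons, no upstream gene is filled for lipofection at 12 h, and HMOX1 and CCL2 lie at opposite ends of the target panel. Values of genes below detection in a group are fitted.

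**Figure D4:**
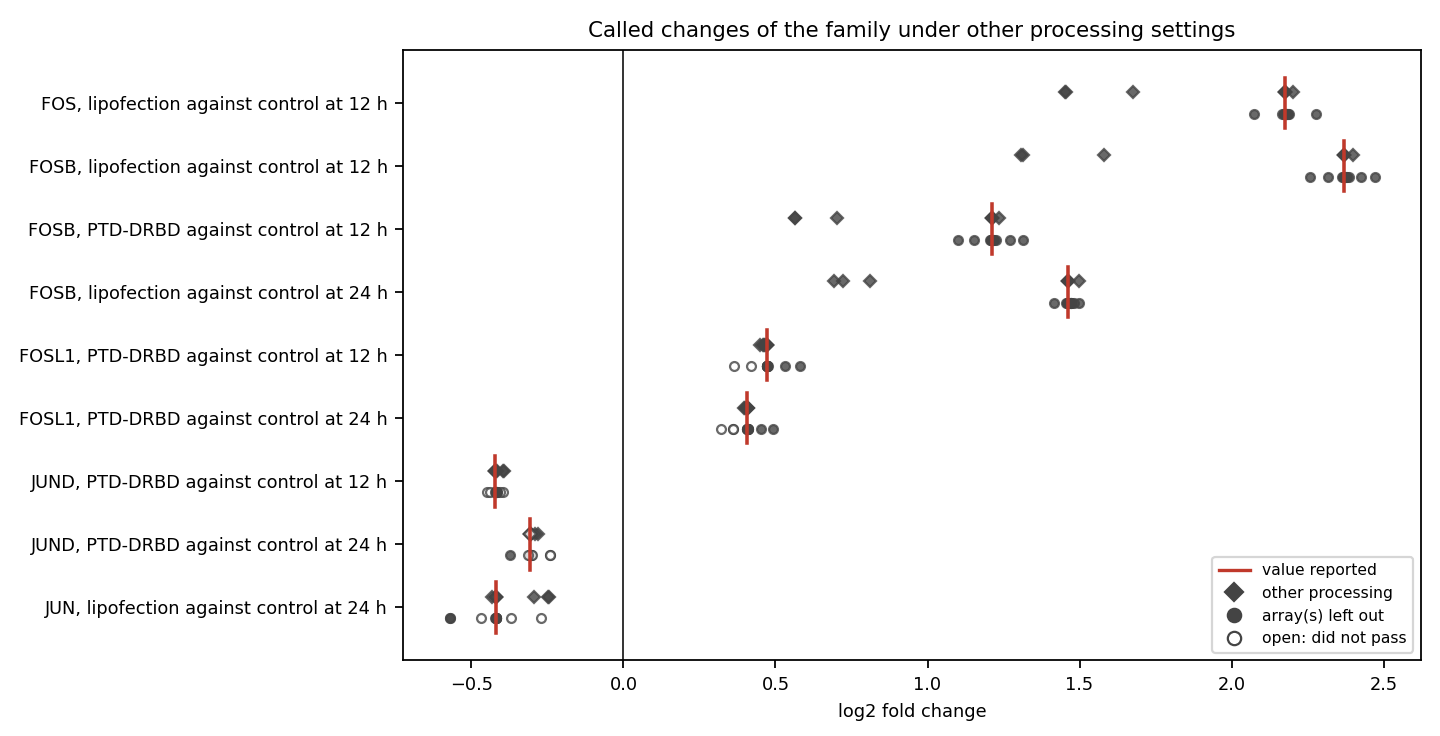
Log2 fold change (x axis) of the 9 family calls against control in the reported fit (red line) and in the alternatives, with diamonds for other processing and circles for fits with arrays left out. Open symbols did not pass. The FOS and FOSB values shrink without background correction and keep their sign, and the FOSL1, JUND and JUN values pass in some fits and not in others.

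Between 17990 and 19097 probes were detected per array, the median raw intensity lay between 61.3 and 73.1, and replicate arrays correlated at 0.997 to 0.998. GAPDH, the siRNA target, stood at 41.6% of control with lipofection and 9.77% with PTD-DRBD at 12 h, and at 51.3% and 14.0% at 24 h. Of the markers of the line, KRT8, KRT18, VIM and CDH2 were detected on all 12 arrays, CDH1 on 11, EPCAM on 1 and KRT19 on 0. Of 8 markers of blood, endothelial and stromal cells with a probe, 6 were detected on 0 arrays, PECAM1 on 6 and PTPRC on 12 at raw intensities between 71.8 and 93.2. With 2 arrays against 2, an exact permutation test of a single gene cannot go below p = 0.333.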

How the data were processed

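Raw intensities of all probes, read with BeadStudio per the submitters' processing notes, come from the deposited table before normalization, which also gives a detection p-value per probe and array, set by the authors' software from negative control probes. A second deposited table gives intensities normalized by the authors in a way the sources used here do not state, and it served as an alternative. In a further deposited table each value is a signed score for probes past 1.6-fold, which matched the ratio of the authors' normalized group means.

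Background was corrected from the detection p-values with neqc of limma 3.58.1 (R 4.3.3), with an offset of 16, followed by quantile normalization and log2. Of all probes 40.3% met the detection rule, and each gene was represented by its brightest named probe, with names from the platform annotation brought up to date through RefSeq identifiers. One limma model with 6 group means covered all 12 arrays, and Benjamini-Hochberg adjustment at 0.05 ran over 12117 genes in each comparison. Where a whole group lay below detection, the fold is a bound. For it the dim group's value on each array was raised to that array's dimmest detected probe if it lay lower. Replicate numbers are only names, and the number of arrays limits the precision.

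Members and lists were chosen with earlier results of these data known. All members were named in every comparison, from each list the 6 with the largest change that passed against control, and for likeness the 3 genes with the highest r, passing over clone names. The model was tested on simulated data.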

Additional observations from a re-analysis of the deposited data

Results flagged for a closer look

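With lipofection the log2 difference of FOS from control moved by −1.90 between 12 h and 24 h, by the test of the difference itself. The fitted difference of FOSB moved by −0.91 with lipofection and −1.09 with PTD-DRBD. FOSB was below detection in the 24 h control and with PTD-DRBD at 24 h, so these 2 values are fits against unmeasured levels, and neither shows a change with time of the size given.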

How the results depend on the processing

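With 2 arrays a group, calls near the threshold changed with single arrays. No paired analysis was possible because the replicate numbers only name the arrays. Of 1179 values of members under 22 alternatives, 1077 kept direction and side of the threshold, 56 lost and 17 gained the call, and 29 changed sign, none of which had passed. FOSB is dropped by requiring detection on all 12 arrays. That setting left 1 member called with lipofection at 12 h, 1 at 24 h, 1 between the routes at 24 h, and 1 and 0 for the changes with time of lipofection and PTD-DRBD. Without a detection filter, or with every detected probe, 1 was called with lipofection at 24 h. On only the arrays compared, 1 was called with PTD-DRBD and 1 between the routes at 24 h. Without both second treated 24 h arrays these were 0 and 1, and 1 for the change with lipofection.

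Leaving out 1 array gave counts of 2 for lipofection and 1 to 3 for PTD-DRBD at 12 h, 1 to 2 and 0 to 2 at 24 h, 2 to 5 between the routes at 12 h and 1 to 2 at 24 h. For the changes with time it gave 1 to 2 with lipofection and 1 with PTD-DRBD, and 0 to 3 between the controls. Signs that turned with arrays left out belonged to imprecise differences of FOS at 24 h and otherwise to differences near 0. They were FOSL1 with lipofection (−0.068 to 0.15 at 12 h, −0.034 to 0.13 at 24 h), JUN with PTD-DRBD (−0.080 to 0.30 at 12 h, −0.22 to 0.044 at 24 h), and FOS at 24 h (−0.22 to 0.77 with lipofection, −0.77 to 0.22 with PTD-DRBD). FOSL2 between the routes at 24 h ranged from −0.022 to 0.028. The changes with lipofection ranged from −0.096 to 0.12 for FOSL1, −0.040 to 0.15 for FOSL2 and −0.20 to 0.10 for JUN, and those with PTD-DRBD from −0.17 to 0.043 for FOSL1 and −0.098 to 0.091 for FOSL2. Without both second treated 24 h arrays FOS was at 0.12 and JUN at 0.044 with PTD-DRBD at 24 h, FOSL2 at −0.0077 between the routes, and its change with PTD-DRBD at 0.023, which was 0.0049 without background correction and 0.0026 with an offset of 50.

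Calls over all genes ranged from 515 to 1800 (1439 reported) with lipofection and 303 to 1327 (955) with PTD-DRBD at 12 h, 1155 to 3443 (2854) and 178 to 2494 (1699) at 24 h, 671 to 2251 (1793) and 144 to 1500 (1000) between the routes, 171 to 1656 (968) and 10 to 324 (44) for the changes with time, and 413 to 1438 (1055) between the controls. The causes were not tested.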
